A study of Homo sapiens with 6 samples.

Results

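Small nucleolar RNA (snoRNA) host genes were followed in SH-SY5Y cells, a human neuroblastoma line, as measured by total RNA sequencing. The genes were taken by name from the deposited table: every gene called SNHG followed by a number, plus GAS5, ZFAS1, EPB41L4A-AS1, TAF1D and DANCR. They came to 33 of the 61860 genes. The rule uses names alone, although earlier results of these data were known when it was set. GENCODE release 29 annotates 31 of them as non-coding and the other two, TAF1D and SNHG32, as protein-coding, so the name of a long non-coding class does not cover those. In the IR+Oligonol group (3 libraries) and in the IR control group (3 libraries) the line had been differentiated towards neurons with retinoic acid and made insulin resistant (IR) with insulin at 100 nM and D-glucose at 30 mM for 24 h. The IR+Oligonol libraries had also received Oligonol, a polyphenol preparation from lychee fruit, at 500 ng/mL for 24 h. Cells that never became insulin resistant were not analysed here, and the labels do not say whether the 3 libraries of a group were separate cultures; p-values therefore cover the spread among these libraries, which may be technical.

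A snoRNA host gene is transcribed and spliced, and the snoRNA is trimmed out of an excised intron, so that 1 transcript gives rise to a long spliced RNA and to a short stable one. C/D snoRNAs guide 2′-O-methylation and H/ACA snoRNAs guide pseudouridylation, mostly of ribosomal RNA, while the related scaRNAs act in Cajal bodies on spliceosomal RNAs. Many hosts start with a terminal oligopyrimidine (TOP) tract, as ribosomal protein genes do, and the spliced RNA of hosts such as GAS5 is a substrate of nonsense-mediated decay, so host and snoRNA have separate lifetimes. By position, 153 of the 989 snoRNAs in the table lay between the start and end of a host, all on the host's strand; 84 lay in SNHG14 and 69 in the other hosts. GAS5 was the only host of the 33 with none in the table, and its snoRNAs were not analysed here.

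The following snoRNAs are described singly below, and are shown because each belongs to a host whose ratio of snoRNA to host RNA lay below all controls in every Oligonol library. The sequences are GENCODE release 29 transcripts on GRCh38, 5′ to 3′ in DNA letters, and each has the length of its span in the deposited table. Capitals mark the C box (TGATGA, within the first 25 bases) and the D box (CTGA, within the last 14) of C/D snoRNAs, and ACA followed by exactly 3 bases at the end of H/ACA snoRNAs. Only the given strand was searched. They are not always the highest of their host: by mean CPM over the 6 libraries that was SNORD12C in ZFAS1, SNORA8 in TAF1D and SNORA74A in SNHG4. SNORA73A and SNORA73B (host SNHG3) belong to the U17 family, which takes part in cleavage of the ribosomal RNA precursor.
SNORA73A: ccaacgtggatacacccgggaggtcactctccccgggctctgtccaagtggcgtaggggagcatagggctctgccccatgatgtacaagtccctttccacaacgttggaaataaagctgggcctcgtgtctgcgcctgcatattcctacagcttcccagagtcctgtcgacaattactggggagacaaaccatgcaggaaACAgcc
SNORA73B: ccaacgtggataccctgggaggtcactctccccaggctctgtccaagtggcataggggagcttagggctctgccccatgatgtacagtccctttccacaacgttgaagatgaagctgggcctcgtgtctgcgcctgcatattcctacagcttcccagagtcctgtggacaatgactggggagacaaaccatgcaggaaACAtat
SNORA71A: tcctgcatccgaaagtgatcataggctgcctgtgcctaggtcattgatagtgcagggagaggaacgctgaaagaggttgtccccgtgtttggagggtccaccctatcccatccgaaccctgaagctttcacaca
SNORA71C: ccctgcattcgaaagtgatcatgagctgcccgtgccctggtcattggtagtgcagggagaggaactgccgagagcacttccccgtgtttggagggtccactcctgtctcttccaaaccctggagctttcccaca
SNORA74D: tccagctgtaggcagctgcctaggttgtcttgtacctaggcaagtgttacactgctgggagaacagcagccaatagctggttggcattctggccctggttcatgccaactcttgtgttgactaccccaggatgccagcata
SNORD22: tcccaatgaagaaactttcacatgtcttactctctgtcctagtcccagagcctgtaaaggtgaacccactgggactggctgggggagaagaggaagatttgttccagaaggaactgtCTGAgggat
SNORD12: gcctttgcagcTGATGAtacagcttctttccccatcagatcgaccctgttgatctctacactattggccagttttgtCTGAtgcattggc
SNORD12B: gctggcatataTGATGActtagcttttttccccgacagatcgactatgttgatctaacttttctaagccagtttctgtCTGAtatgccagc
SNORD6: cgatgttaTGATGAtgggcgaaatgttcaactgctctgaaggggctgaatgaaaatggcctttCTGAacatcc
SNORA73A lies at chr1:28507366-28507571, plus strand, and SNORA73B at chr1:28508559-28508762, plus strand, and the pair is 93.2% identical. SNORA71A (chr20:38427309-38427442, minus strand) and SNORA71C (chr20:38429670-38429803, minus strand) in SNHG17 are 83.1% identical, and SNORD12 (chr20:49280683-49280772, plus strand) and SNORD12B (chr20:49280319-49280409, plus strand) in ZFAS1 are 71.0% identical. SNORD6 (chr11:93731502-93731574, minus strand) lies in TAF1D, SNORA74D (chr5:139276180-139276320, plus strand) in SNHG4, and SNORD22 (chr11:62852910-62853035, minus strand) in SNHG1. SNHG7, SNHG10, SNHG12, SNHG21, SNHG22, SNHG31 and ZFAS1 are annotated as antisense to another gene, and whether the counting used strand is unknown here. Where their transcripts overlap those of that gene, reads of both may not be told apart, and the extent of overlap was not checked. Coordinates are those of the deposited table, whose build is GRCh38.p13 per the submitters' processing notes. Of the 26 tested C/D snoRNAs in hosts, 24 held the C box letters and 26 the D box letters, against 67.1% and 87.4% of the 310 C/D snoRNAs of the table with a sequence. Of these 26, 18 were SNORD116 copies of SNHG14. The 310 also include genes in hosts and genes that were not tested, so the shares cannot be read as a difference. The ACA letters closed 15 of 26 tested H/ACA snoRNAs in hosts, against 67.0% of 212 in the table, tested or not.

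Levels are CPM, estimated counts rescaled to a common library total after trimmed-mean (TMM) scaling; in bulk RNA, fewer cells that express a gene and less of its RNA in each cell cannot be told apart. The deposited estimated counts behave as abundances per unit of transcript length, so levels of longer RNAs can be set side by side between genes. For long RNAs that scaling subtracts a fitted 153.8 to 158.9 nt from transcript length, more than most snoRNAs here measure. How far the level of a snoRNA can be set beside that of a longer RNA was not tested. Library totals were 19457923, 20912945 and 20100206 estimated counts with Oligonol and 22738203, 25328857 and 32209583 in IR control. The libraries differ in make-up: a few abundant small RNAs held 60.9% ± 3.15 of estimated counts with Oligonol and 74.8% ± 2.29 in IR control (SD, n = 3 each). Host genes together held 0.0372% ± 0.00642 of all estimated counts with Oligonol and 0.0162% ± 0.000490 in IR control (p = 0.1 in an exact permutation test, 2-sided, which has no smaller p at this size). Protein-coding genes also held more, 11.4% ± 1.22 with Oligonol and 6.6% ± 0.313 in IR control. As a percentage of protein-coding estimated counts, host genes stood at 0.325 ± 0.0227 with Oligonol and 0.246 ± 0.0108 in IR control, every Oligonol library above every control. The hosts rested on 12311 to 13783 read equivalents a library with Oligonol and 8639 to 13272 in IR control. A read equivalent is the deposited value divided by what 1 read of a transcript of that length is worth. Calls are adjusted p under 0.05 in edgeR's quasi-likelihood test over 16574 genes. Neuronal and neuroblast markers such as STMN2, with 22.4 ± 2.01 CPM with Oligonol and 15.9 ± 2.86 CPM in IR control (SD, n = 3 each), were present, while TH was near 0; of 9 markers of other cell types 7 were too low to test, KRT5 and AQP4 were at or near 0, and CD68 and GFAP were not called.

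With Oligonol, 11 host genes fell and 2 rose of the 28 that could be tested, 15 were not called, and 5 were too low. The share that fell was 39.3%, beside 23.0% of all tested genes called lower, and the share that rose was 7.14%, beside 26.0% of all tested genes called higher; 48.9% of all tested genes were called in either direction. The median log2 fold change of the tested hosts was -0.33, beside 0.15 over all tested genes. All Oligonol libraries lay below all controls for 11 of the 28 hosts and above them for 3, beside 28.8% and 33.8% of all tested genes. These counts follow the scaling to TMM: by library totals, which moves the median of all genes to 1.53, 19 hosts were called higher and none lower, beside 68.1% and 0.223% of all genes, and the hosts' median was 1.12. On that scale 10 of the 11 hosts that fell, all but SNHG7, stood above 0 and below 1.53. The counts also changed with the libraries used: without the third control no host was called by edgeR, where 10 of 30 were lower and 1 higher at an unadjusted p under 0.05, and without the second control, the first Oligonol or the third Oligonol library 2, 3 and 2 fell and 1 rose in each case. Without the first control 8 fell and 1 rose, and without the second Oligonol library 11 fell and 3 rose. SNHG7, SNHG19 and TAF1D lost their call only without the third control, and the other 10 lost it in 3 to 5 of the 6 omissions, with no change of sign.

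**Figure D1:**
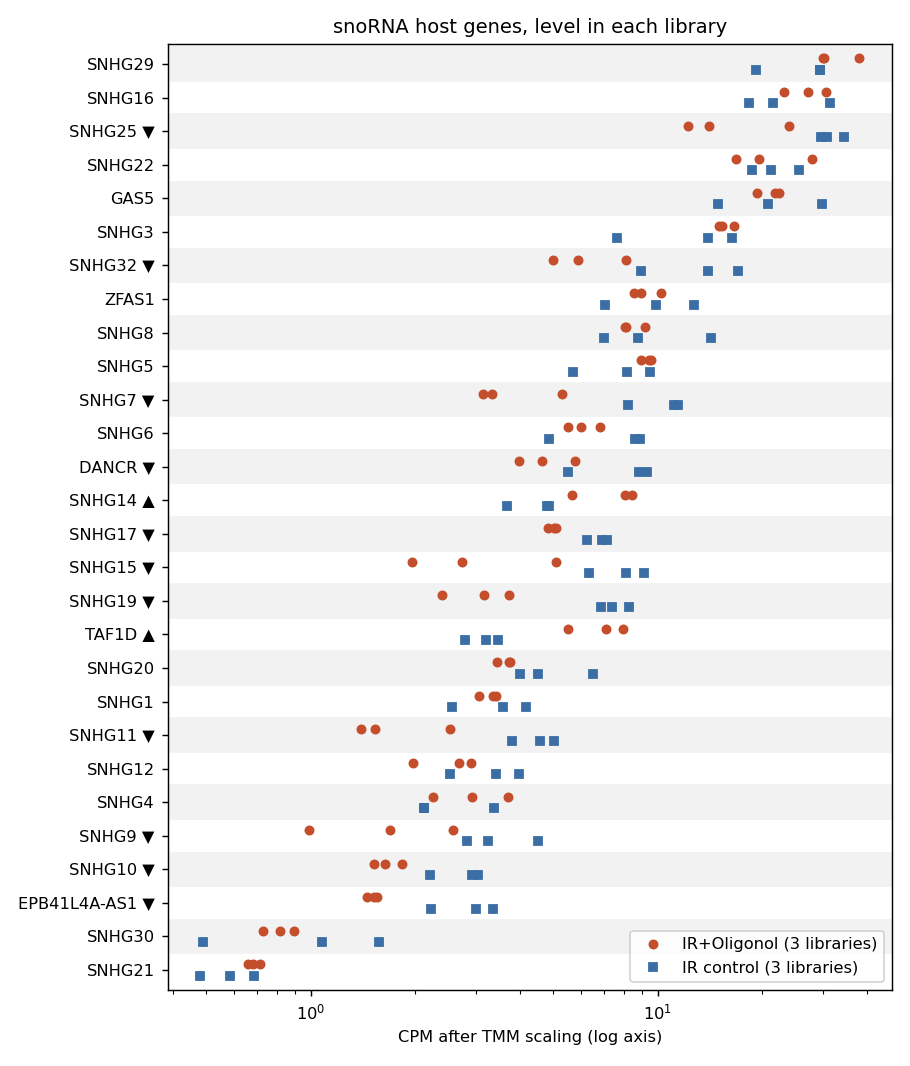
Level of the 28 tested host genes in each library, in CPM after TMM scaling on a log axis, ordered by mean level; circles are the 3 IR+Oligonol libraries and squares, drawn just beneath, the 3 IR control libraries. Triangles after a name mark genes called lower (11, pointing down) or higher (2, pointing up); the circles of SNHG7, SNHG11 and SNHG19 lie wholly left of the squares, and those of TAF1D and SNHG14 wholly right.

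Among the hosts of H/ACA snoRNAs, SNHG7, which holds the SNORA17 copies, gave the largest fall of any host. Its level was 3.34, 5.32 and 3.15 CPM in the IR+Oligonol libraries, against 8.21, 11.1 and 11.5 CPM in the IR control libraries. No Oligonol library reached the lowest control, and the log2 fold change was -1.39 ± 0.26 (adjusted p = 0.00833), with the standard error (SE) after the ± sign. SNHG11, host of SNORA71E and SNORA60, stood at 1.53, 2.52 and 1.40 CPM in the IR+Oligonol libraries, against 3.80, 5.03 and 4.59 CPM in the IR control libraries. Its groups did not overlap either, with a log2 fold change of -1.31 ± 0.26 (adjusted p = 0.00920). SNHG15, host of SNORA9, had 1.96, 5.08 and 2.72 CPM in the IR+Oligonol libraries, against 6.34, 8.09 and 9.16 CPM in the IR control libraries; the second Oligonol library was the highest of its group and still below every control, and the log2 fold change was -1.28 ± 0.35 (adjusted p = 0.0209). SNHG9, a gene of 615 nt with SNORA78 inside it, had 0.987, 2.57 and 1.69 CPM in the IR+Oligonol libraries, against 3.25, 4.52 and 2.81 CPM in the IR control libraries, again without overlap, and rested on 17.5 to 57.7 read equivalents a library. Its log2 fold change was -1.03 ± 0.35 (adjusted p = 0.0426).

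SNHG17, host of the SNORA71 family, varied little within either group, at 4.83, 5.04 and 5.09 CPM in the IR+Oligonol libraries, against 7.15, 6.91 and 6.28 CPM in the IR control libraries. The groups were apart although the change was small, with a log2 fold change of -0.44 ± 0.16 (adjusted p = 0.0475). EPB41L4A-AS1, which holds SNORA13, had 1.45, 1.52 and 1.55 CPM in the IR+Oligonol libraries, against 2.23, 3.35 and 2.996 CPM in the IR control libraries; every Oligonol value lay below every control value, and the log2 fold change was -0.92 ± 0.21 (adjusted p = 0.0118). DANCR, known as a suppressor of differentiation in progenitor cells and host of SNORA26, had 3.997, 5.77 and 4.65 CPM in the IR+Oligonol libraries, against 5.53, 8.85 and 9.34 CPM in the IR control libraries. Here the groups overlapped, because 1 control lay below the highest Oligonol library, and the log2 fold change was -0.73 ± 0.25 (adjusted p = 0.0411).

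SNHG10 is the host of a scaRNA, SCARNA13, and had 1.52, 1.84 and 1.64 CPM in the IR+Oligonol libraries, against 2.21, 2.91 and 3.03 CPM in the IR control libraries. The groups were separate, with a log2 fold change of -0.71 ± 0.20 (adjusted p = 0.0213). SNHG25, a gene of 540 nt holding the C/D snoRNA SNORD104 and the H/ACA snoRNA SNORA50C, was among the most abundant hosts, at 14.1, 23.9 and 12.3 CPM in the IR+Oligonol libraries, against 29.6, 34.5 and 30.8 CPM in the IR control libraries. The second Oligonol library stood well above the other two, below all controls, and the log2 fold change was -0.92 ± 0.29 (adjusted p = 0.0309).

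Among hosts of C/D snoRNAs, SNHG19, a gene of 614 nt holding SNORD60, had 3.16, 3.73 and 2.39 CPM in the IR+Oligonol libraries, against 7.38, 6.88 and 8.29 CPM in the IR control libraries. It had the smallest adjusted p of the hosts, with a log2 fold change of -1.29 ± 0.21 (adjusted p = 0.00713). SNHG32, host of SNORD48 and SNORD52 and annotated as protein-coding, had 5.01, 8.09 and 5.89 CPM in the IR+Oligonol libraries, against 8.96, 14.01 and 17.04 CPM in the IR control libraries. All Oligonol values lay below the lowest control, and the log2 fold change was -1.08 ± 0.29 (adjusted p = 0.0190).

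The 2 hosts that rose are the ones with the most snoRNAs inside them. TAF1D encodes a subunit of the selectivity factor that brings RNA polymerase I to the ribosomal DNA promoter, and 8 snoRNAs of the table lie inside it. It had 7.96, 5.52 and 7.08 CPM in the IR+Oligonol libraries, against 3.19, 3.46 and 2.79 CPM in the IR control libraries. All Oligonol libraries lay above all controls, and the log2 fold change was 1.12 ± 0.20 (adjusted p = 0.00787). SNHG14 is the very long host of the imprinted Prader-Willi region, whose far end runs antisense to UBE3A. It had 8.41, 5.67 and 8.05 CPM in the IR+Oligonol libraries, against 4.81, 4.86 and 3.67 CPM in the IR control libraries. Every Oligonol value was above every control value, and the log2 fold change was 0.73 ± 0.22 (adjusted p = 0.0259).

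Of the 6 most abundant hosts SNHG25, above, was called and the others were not. SNHG29 had the highest level of all, 30.1, 29.9 and 38.2 CPM in the IR+Oligonol libraries, against 19.2, 29.4 and 29.3 CPM in the IR control libraries; its Oligonol libraries lay above its controls, by a margin that did not pass the test, with a log2 fold change of 0.33 ± 0.25 (adjusted p = 0.299). SNHG16 had 30.5, 23.1 and 27.2 CPM in the IR+Oligonol libraries, against 18.3, 21.5 and 31.4 CPM in the IR control libraries, with overlapping groups and a log2 fold change of 0.18 ± 0.26 (adjusted p = 0.583). GAS5, a growth-arrest transcript and the textbook host whose spliced RNA is removed by nonsense-mediated decay, had 19.4, 22.4 and 21.7 CPM in the IR+Oligonol libraries, against 14.9, 20.9 and 29.7 CPM in the IR control libraries. The controls of GAS5 spanned the Oligonol libraries on both sides, and its log2 fold change was -0.04 ± 0.28 (adjusted p = 0.904). SNHG22 and SNHG3 overlapped too: SNHG22 averaged 21.4 ± 5.77 CPM with Oligonol and 21.8 ± 3.48 CPM in IR control, and SNHG3 averaged 15.7 ± 0.804 CPM with Oligonol and 12.6 ± 4.52 CPM in IR control (SD, n = 3 each). Their log2 fold changes were -0.03 ± 0.26 (adjusted p = 0.938) and 0.31 ± 0.28 (adjusted p = 0.391). The other hosts that were tested and not called (ZFAS1, SNHG8, SNHG5, SNHG6, SNHG20, SNHG1, SNHG12, SNHG4, SNHG30 and SNHG21) had log2 fold changes between -0.45 ± 0.21 for SNHG20 and 0.26 ± 0.22 for SNHG5. SNHG31, SNHG27, SNHG26 and SNHG28 were too low to test, at most 0.819 CPM in any library, and SNHG18 was listed at 0 in all 6.

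Transcript GC content moved with the direction. The 11 hosts that fell had a median GC of 56.1%, from 47.2% to 64.5%; TAF1D and SNHG14, which rose, had 38.0% and 45.0%, and those not called had 42.0% to 54.6%. Of the 14 tested hosts with a GC of at least 50%, 9 fell and none rose, beside 45.5% lower and 3.32% higher among all such genes; of the 14 with less, 2 fell and 2 rose, beside 2.13% lower and 47.0% higher. Over the 28 hosts, which share the 6 libraries, Spearman's rho was -0.66 between log2 fold change and GC and 0.64 between log2 fold change and genomic span, given as descriptions. With each library's GC trend taken out, 5.45% of all genes were called, 2.56% lower and 2.89% higher, and edgeR called 4 of the hosts lower and none higher (13 and 0 at an unadjusted p under 0.05). Those 4 were EPB41L4A-AS1 (-1.22), SNHG10 (-1.16) and SNHG19 (-0.73), which also fell without it, and SNHG6 (-1.18); TAF1D then stood at 0.01 and SNHG14 at 0.06. That step also takes out any change that truly follows GC, and the part of GC in the direction was not tested.

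**Figure D2:**
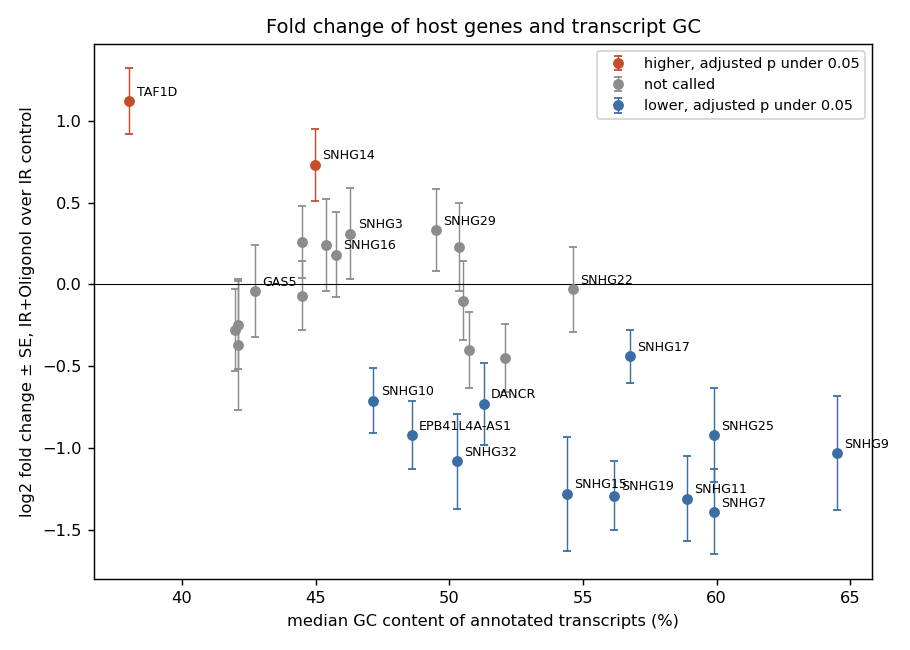
Log2 fold change, IR+Oligonol over IR control, of the 28 tested host genes (points, with SE bars) against the median GC content of their annotated transcripts in percent. All 9 genes with a GC of at least 50% that passed the test lie below 0, and the 2 that rose, TAF1D and SNHG14, lie at 38.0% and 45.0%.

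Of the 153 snoRNAs inside the hosts, 55 could be tested; 17 fell, 1 rose and 37 were not called, with a median log2 fold change of -0.85. All 322 tested snoRNAs of the table gave 28.9% lower and 7.45% higher, and the share of 30.9% lower in the hosts is near that background. Outside SNHG14, 17 of 37 tested fell, or 45.9%, and 2.7% rose, with a median of -1.01. Of the 267 tested snoRNAs elsewhere 28.5% fell and 8.61% rose, with a median of -0.49. By kind, 12 of 26 tested SNORA genes (H/ACA) fell and none rose, while of 26 SNORD genes (C/D) 3 fell and 1 rose, and 1 of 2 SCARNA genes fell. The other gene that fell has no symbol in the table. Of the 26 SNORD genes 18 were SNHG14 copies with few reads, none of them called, so the counts by kind cannot be read as a difference between kinds. Shares by kind among the other snoRNAs of the table are not given here. The 18 tested snoRNAs of SNHG14 were all SNORD116 copies, none was called by edgeR or DESeq2, 0 had an unadjusted p under 0.05 in either, and none had more than 10.9 read equivalents in a library; SNORD116-3 and SNORD116-9 carried identical values, as did SNORD116-5 and SNORD116-7. Of the 55 tested, 20 lie whole within an annotated transcript of their host, so that reads of such a snoRNA and of that transcript cannot be told apart. Without the third control 3 snoRNAs fell, without the second control 5, without the third Oligonol library 6 and without the first 8; SNORA71C, SNORA74D and the gene without a symbol lost their call only without the third control, SNORA71A never, and the other 13 that fell in 2 to 5 of the 6 omissions.

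SNORA73A was the most abundant snoRNA of the hosts, at 785, 1642 and 1018 CPM in the IR+Oligonol libraries, against 2805, 2722 and 3072 CPM in the IR control libraries. SNORA73B, its neighbour in SNHG3, had 669, 1140.0 and 912 CPM in the IR+Oligonol libraries, against 2013, 2051 and 2100.0 CPM in the IR control libraries. Both were below all controls in every Oligonol library, with log2 fold changes of -1.32 ± 0.33 (adjusted p = 0.0156) and -1.18 ± 0.29 (adjusted p = 0.0142), while the host SNHG3 was not called. In SNHG17, SNORA71A had 78.5, 86.1 and 81.4 CPM in the IR+Oligonol libraries, against 215, 211 and 231 CPM in the IR control libraries, without overlap. Its log2 fold change was -1.42 ± 0.23 (adjusted p = 0.00710), beside -1.80 ± 0.32 (adjusted p = 0.00775) for SNORA71C and -1.56 ± 0.49 (adjusted p = 0.0324) for SNORA71D; SNORA71B, at 4.998 ± 1.16 CPM with Oligonol and 6.69 ± 2.12 CPM in IR control, was not called. SNORD22, in SNHG1, had 14.4, 30.1 and 16.4 CPM in the IR+Oligonol libraries, against 66.5, 53.4 and 81.2 CPM in the IR control libraries. The groups were far apart, with a log2 fold change of -1.73 ± 0.35 (adjusted p = 0.00947), and SNHG1 itself was not called. SCARNA13 in SNHG10, a scaRNA, had 267, 382 and 292 CPM in the IR+Oligonol libraries, against 469.6, 562 and 1188 CPM in the IR control libraries, where the third control was the highest by a wide margin, and a log2 fold change of -1.24 ± 0.40 (adjusted p = 0.0338).

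SNHG4 holds a pair of SNORA74 copies, and both fell although the host did not. SNORA74A averaged 67.7 ± 20.1 CPM with Oligonol and 139.7 ± 13.8 CPM in IR control, with a log2 fold change of -1.05 ± 0.29 (adjusted p = 0.0200). SNORA74D averaged 21.7 ± 2.81 CPM with Oligonol and 47.04 ± 1.25 CPM in IR control, with a log2 fold change of -1.11 ± 0.22 (adjusted p = 0.00884). SNORA9 in SNHG15 and SNORA13 in EPB41L4A-AS1 fell beside hosts that fell as well, with log2 fold changes of -1.39 ± 0.31 (adjusted p = 0.0112) and -0.95 ± 0.23 (adjusted p = 0.0147). SNORA16A in SNHG12 averaged 5.71 ± 2.38 CPM with Oligonol and 13.1 ± 0.482 CPM in IR control, at a log2 fold change of -1.20 ± 0.32 (adjusted p = 0.0177); the same name stands on a second identifier that is near 0. In SNHG7 the gene that fell without a symbol covers the same place as SNORA17A, which is 1 base longer and listed at 0, and had a log2 fold change of -1.58.

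In TAF1D snoRNAs passed the test in both directions, and in ZFAS1 both that passed it fell. In ZFAS1, an antisense gene next to ZNFX1, SNORD12C had 16.1, 31.8 and 13.8 CPM in the IR+Oligonol libraries, against 33.1, 40.1 and 48.2 CPM in the IR control libraries, and fell with a log2 fold change of -0.98 ± 0.35 (adjusted p = 0.0492). SNORD12 had 0, 0.241 and 0.437 CPM in the IR+Oligonol libraries, against 1.74, 9.78 and 6.59 CPM in the IR control libraries, without overlap. Each library held at most 7.82 read equivalents of it, and its log2 fold change was -4.76 ± 1.12 (adjusted p = 0.0243). SNORD12B had 9.66, 6.41 and 12.5 CPM in the IR+Oligonol libraries, against 2.11, 7.45 and 6.15 CPM in the IR control libraries, with overlapping groups and a log2 fold change of 0.87 ± 0.47 (adjusted p = 0.167). In TAF1D, SNORA18 had 5.31, 11.3 and 11.2 CPM in the IR+Oligonol libraries, against 24.6, 30.2 and 19.2 CPM in the IR control libraries, below all controls, and a log2 fold change of -1.41 ± 0.33 (adjusted p = 0.0130). SNORA1 averaged 3.45 ± 0.567 CPM with Oligonol and 7.005 ± 3.07 CPM in IR control, overlapping, at -1.01 ± 0.34 (adjusted p = 0.0422). SNORD6 was the only snoRNA of the 55 to rise, at 4.25, 5.64 and 4.52 CPM in the IR+Oligonol libraries, against 0.983, 1.32 and 3.28 CPM in the IR control libraries, without overlap, with a log2 fold change of 1.37 ± 0.43 (adjusted p = 0.0345). It rested on 0.968 to 5.53 read equivalents a library and lost its call in 5 of the 6 omissions. SNORA8, the most abundant in TAF1D, was not called, at -0.83 ± 0.32 (adjusted p = 0.0615).

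Because both RNAs of a host come from the same library, the ratio of its summed snoRNA level to its own level does not depend on how libraries are scaled. The ratio could be formed for 18 hosts; for SNHG16, SNHG29, SNHG5, SNHG32 and SNHG19 at least 1 library had no snoRNA value above 0, and for SNHG22 and SNHG6 none had. Of the other hosts 7 averaged under the minimum of 1 CPM, and GAS5 holds no snoRNA of the table. It was lower with Oligonol in 14 of the 18, with a median difference of -0.55 (log2). In 8 hosts every Oligonol library lay below every control, and in SNHG11 every one lay above. With 3 libraries against 3 an exact 2-sided permutation test cannot go below p = 0.1, which is what those 9 hosts gave, and the adjusted value over the 18 hosts was 0.2, so none passed. Such ratios are not given here for other genes, so these counts have no background share beside them. Elsewhere in the table the medians of log2 fold change were also apart, at -0.49 for other snoRNAs and 0.26 for other protein-coding genes with a snoRNA inside. Whether the ratios of these hosts differ from that background was not tested. The summed snoRNA level itself was lower with Oligonol in 17 of the 18 hosts after TMM scaling and in 4 by library totals. Spearman's rho between the log2 difference of host and that of its snoRNAs was -0.1 over the 18, as a description.

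The largest gap was in TAF1D, whose log2 ratio was 2.54, 3.95 and 3.08 in the IR+Oligonol libraries, against 5.09, 4.96 and 5.55 in the IR control libraries. The mean difference was -2.01, from a host that was higher by 1.11 and snoRNAs that were lower by 0.90. In SNHG1 the log2 ratio was 2.10, 3.14 and 2.43 in the IR+Oligonol libraries, against 4.75, 3.97 and 4.32 in the IR control libraries, a difference of -1.79, with the host lower by 0.04 and the snoRNAs by 1.83. In SNHG3 it was 6.46, 7.53 and 6.97 in the IR+Oligonol libraries, against 9.31, 8.19 and 8.53 in the IR control libraries, a difference of -1.69; the median linear ratio of SNORA73 RNA to host was 126 with Oligonol and 371 in IR control. SNHG8, SNHG4, SNHG14, SNHG17 and ZFAS1 followed with differences of -1.50, -1.31, -1.28, -1.01 and -0.70. The values of SNHG14 rested on only 29 to 57 read equivalents of 27 snoRNAs a library, and those of SNHG8 on 6 to 56 of SNORA24. Those of ZFAS1 rested on 27 to 57 read equivalents of snoRNA a library, and those of SNHG1 on 25 to 111. Some of these snoRNAs lie whole within an annotated transcript of their host. Among them are SNORA1, SNORA8, SNORA18, SNORA25 and SNORA40 in TAF1D, SNORD22 in SNHG1, SNORA73A in SNHG3, SNORA24 in SNHG8 and SNORD12 in ZFAS1. Reads of those cannot be told apart from reads of such a transcript. SNORA73B in SNHG3, SNORA71A in SNHG17 and SNORA74A in SNHG4 lie within none. With the GC trend taken out, log2 fold changes were 0.01 for TAF1D beside -2.07 for SNORA18, -0.77 for SNHG1 beside -1.94 for SNORD22, -0.23 for SNHG3 beside -0.78 for SNORA73A, and 0.18 for SNHG17 beside -1.10 for SNORA71A. The share of abundant small RNAs in all estimated counts was 60.9% with Oligonol and 74.8% in IR control. On that same unscaled measure, snoRNAs inside hosts held 0.479% ± 0.0397 with Oligonol and 0.44% ± 0.0449 in IR control (SD), with overlapping libraries. The part of the abundant small RNAs in the ratios was not tested.

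**Figure D3:**
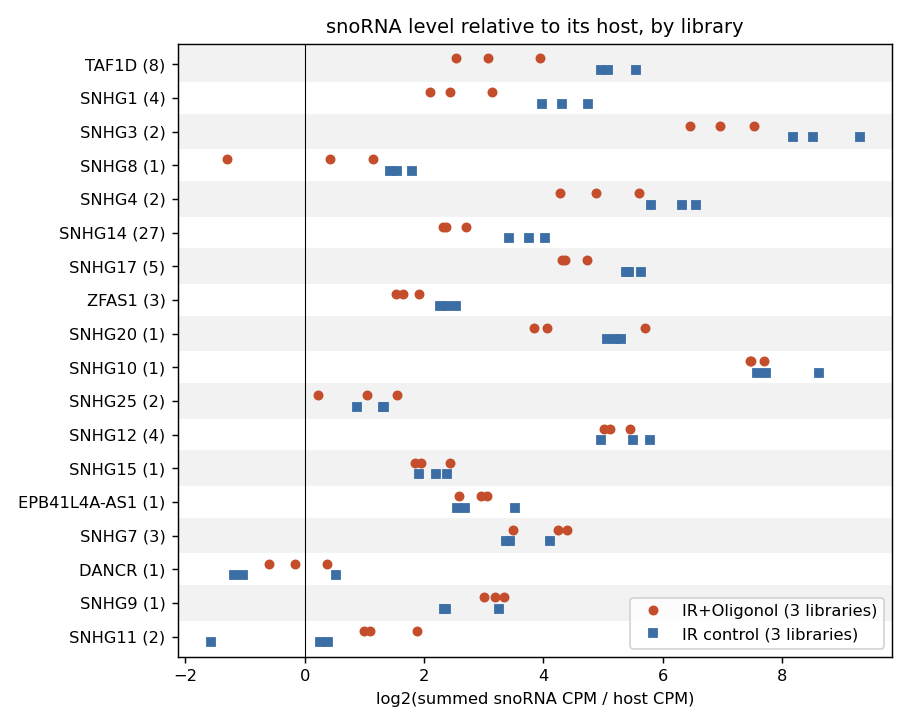
Log2 ratio of the summed CPM of the snoRNAs inside a host to the CPM of the host, by library, for 18 hosts (number of snoRNAs summed in brackets); circles are IR+Oligonol and squares, drawn just beneath, IR control, 3 libraries each. The circles lie wholly left of the squares in the 8 hosts at the top, TAF1D to ZFAS1, and wholly right in SNHG11 at the bottom.

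The other 9 hosts had overlapping ratios. In SNHG15 the log2 ratio differed by -0.09, with host and SNORA9 lower by 1.37 and 1.46, and in EPB41L4A-AS1 by -0.05. In SNHG20, SNHG10, SNHG25 and SNHG12 the difference was -0.65, -0.44, -0.24 and -0.22, and in SNHG7, DANCR and SNHG9 the ratio was higher by 0.40, 0.43 and 0.53. SNHG11 alone lay above all controls: its log2 ratio was 1.00, 1.10 and 1.88 in the IR+Oligonol libraries, against 0.26, 0.39 and -1.58 in the IR control libraries, on 2 to 10 read equivalents of snoRNA a library.

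**Figure D4:**
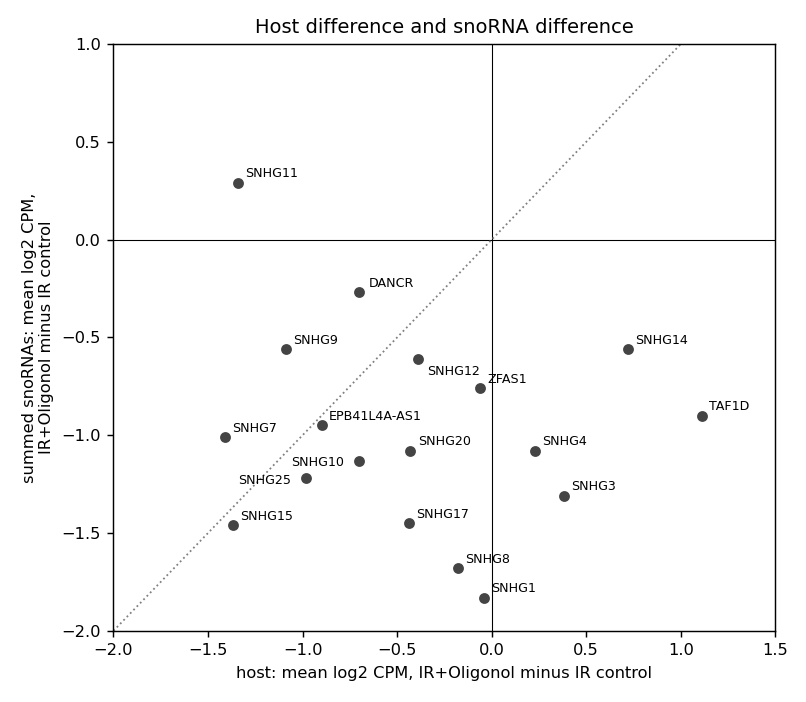
Difference in mean log2 CPM after TMM scaling, IR+Oligonol minus IR control, of 18 hosts (horizontal) and of the summed snoRNAs inside them (vertical); the dotted line marks equal differences. All hosts but SNHG11 lie below 0 on the vertical axis, whether the host stood lower (SNHG7, SNHG15), near 0 (SNHG1, ZFAS1) or higher (TAF1D, SNHG14).

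Genes that share a feature with the hosts were counted in the same test, in which 26.0% of all genes were called higher and 23.0% lower. Of 225 tested protein-coding genes with a snoRNA inside them, other than TAF1D and SNHG32, 78 rose and 26 fell, with a median of 0.26; with the GC trend taken out 7 were higher and 4 lower. Of 34 protein-coding hosts listed as having a TOP start, which was not checked here, 4 rose and 8 fell, with a median of -0.42. With the GC trend taken out 1 was higher and 1 lower. Those that fell included RPL10, with a log2 fold change of -1.37 ± 0.33, and RPL13A, with -1.25 ± 0.33. NCL, encoding nucleolin, averaged 12.4 ± 1.26 CPM with Oligonol and 5.36 ± 0.505 CPM in IR control with a log2 fold change of 1.20 ± 0.18 (adjusted p = 0.00655), and TOMM20, a mitochondrial import receptor, gave 1.15 ± 0.19 (adjusted p = 0.00733). Of 19 tested long non-coding RNAs chosen as having no snoRNA, 13 rose and 1 fell, with a median of 0.84; TUG1 gave 1.37 ± 0.16 (adjusted p = 0.00601) and NORAD 1.04 ± 0.18 (adjusted p = 0.00756). Those 19 had a median GC of 44.8%, beside 49.9% for the hosts, and their median log2 fold change was 0.18 with the GC trend taken out, beside -0.44 for the hosts. With it out, edgeR called 0 of the 19, and 4 were higher and 1 lower at an unadjusted p under 0.05. Whether the lists differ from the hosts was not tested.

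The proteins that act on snoRNAs and on host transcripts were divided, beside 26.0% higher and 23.0% lower among all tested genes. Of the 8 proteins of mature snoRNPs, NOP58 (C/D core), DKC1 (the pseudouridine synthase) and GAR1 (H/ACA) rose, with log2 fold changes of 1.00 ± 0.20 (adjusted p = 0.00958), 0.67 ± 0.17 (adjusted p = 0.0161) and 1.02 ± 0.28 (adjusted p = 0.0190). SNU13, which binds the C/D fold first, NHP2 and NOP10 fell, with -1.06 ± 0.26 (adjusted p = 0.0139), -1.10 ± 0.30 (adjusted p = 0.0198) and -1.41 ± 0.34 (adjusted p = 0.0141). Of 11 tested assembly factors 3 rose (SHQ1, RPAP3 and NAF1) and 2 fell (RUVBL2 and PIH1D1). Of 17 nonsense-mediated decay factors 6 rose and 3 fell; ETF1, the release factor, gave 1.32 ± 0.20 (adjusted p = 0.00641), the kinase SMG1 gave 1.29 ± 0.21 (adjusted p = 0.00710), and the helicase UPF1 gave -0.82 ± 0.20 (adjusted p = 0.0152). With the GC trend taken out, the median log2 fold change was -0.12 for the snoRNP proteins and -0.03 for the decay factors, beside -0.43 and 0.25 with it left in. With it out, edgeR called NOP10 alone of the snoRNP proteins, as lower, and 0 of the assembly and decay factors; at an unadjusted p under 0.05, 2 assembly factors were lower and 3 decay factors higher.

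The starts of the hosts could be read for 29 of the 33, from RefSeq promoters on GRCh38.p14. In the window from 25 bases before to 25 after the annotated start, CTTTC or CTTTT, letters of the kind found in TOP starts, stood on the gene's strand in 12 of 29, beside 11.8% of 35116 promoters. CTTTC stood in 4 (SNHG12, SNHG4, SNHG8 and ZFAS1) and CTTTT in 8; on the opposite strand they stood in 1 and in none, beside 5.48% and 4.35% of promoters. Of those 12 hosts 2 fell (SNHG19 and SNHG32), 1 rose (TAF1D), 8 were not called and 1 was not tested. Among all tested genes 23.0% were called lower and 26.0% higher, and among the 28 tested hosts 39.3% and 7.14%. Whether hosts with these letters differ from the others was not tested.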

How the data were processed

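Per the labels' protocols, a stranded kit turned total RNA into 6 libraries, sequenced as paired reads of 100 nt. GRCh38.p13 is the build, and kallisto 0.46.1, FastQC and edgeR are tools, that the submitters' processing notes list without saying which did what. Not given in the sources used here is whether counting was by strand. The authors deposited estimated counts, which behave as abundances scaled by effective transcript length, and a scaled signal column that is the deposited estimated count times 1 constant per library and was not tested. One read was worth 17.3 to 37.2 estimated counts for RNAs of 60 to 99 nt, but 0.480 to 0.846 at 700 nt, so counting noise is understated for snoRNAs and for the short hosts SNHG9, SNHG19 and SNHG25, and overstated for longer RNAs. Read equivalents divide by that worth, fitted by length from repeated low values of genes with 1 transcript; 55.1 to 66.7% of snoRNA values under 20 came within 0.1 of a whole number. Estimated counts were rounded, filtered with filterByExpr, which left 16574 genes, and compared after TMM scaling by edgeR 4.0.16 in R 4.3.3 (robust quasi-likelihood test, 2-sided, no term but group), with Benjamini-Hochberg adjustment over all tested genes and a threshold of 0.05. Fold changes are log2, IR+Oligonol over IR control, with the standard error implied by the test. The procedure was tested on simulated data.

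Strand, biotype, transcript length and GC content came from GENCODE release 29, which matched all 33 hosts; start and end were the same for 8 of them. A snoRNA belonged to a host when its deposited start and end lay within those of the host on the same strand. The GC trend was a natural spline (5 degrees of freedom) fitted on protein-coding genes in each library and entered as an offset. Named were the hosts past the threshold, the 6 most abundant, and for each host its most abundant snoRNA and up to 3 past the threshold by p; other snoRNAs, assembly factors and markers were named after their values were seen. The hosts and gene lists were chosen with earlier results of these data known. Alternatives were other scalings and filters, DESeq2 1.42.0, limma-voom 3.58.1, GC trend removal, a replicate block, each library left out and other thresholds; read equivalents as counts were added after the data were seen. Some items are not reported here.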

Additional observations from a re-analysis of the deposited data

How the results depend on the processing

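With each library left out in turn, the hosts called lower numbered 0 to 11 and those called higher 0 to 3, snoRNAs in hosts 3 to 23 lower and 0 to 1 higher, and all genes 200 to 4916 lower and 582 to 4576 higher. The lowest host count came without the third control library, and without the first control library 8 hosts were lower and 1 higher. Uncalled genes changed sign: over the omissions log2 fold changes ran from -0.09 to 0.35 for SNHG16, -0.45 to 0.13 for SNHG22, -0.37 to 0.16 for GAS5, -0.06 to 0.44 for SNHG3, -0.66 to 0.17 for SNORA71E, -0.54 to 0.03 for SNORA26 and -0.71 to 1.93 for SNORD7. Without the first control SNHG22 stood at 0.00.

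By library totals 19 hosts were higher and 0 lower, 9 snoRNAs in hosts higher and 1 lower, and 11293 genes higher and 37 lower. Against the shift of 1.53 in all genes, log2 fold changes were then above 0 for SNHG11 (0.04), SNHG17 (0.93), SNHG32 (0.30), EPB41L4A-AS1 (0.48), DANCR (0.66), SNHG15 (0.03), SNHG10 (0.68), SNHG9 (0.27), SNHG19 (0.08), SNHG25 (0.40), SNHG22 (1.28) and GAS5 (1.38), and for SNORA8 (0.49), SNORA1 (0.47), SNORA71E (1.12), SNORD12C (0.34), SNORA61 (0.75), SNORA16A (0.14), SNORA13 (0.38), SNORD116-8 (0.97), SNORA26 (1.04), SNORA17B (0.46), SCARNA16 (0.38), SNORA73B (0.15), SCARNA13 (0.18), SNORA78 (0.82), SNORD104 (0.58), SNORA74A (0.29) and SNORA74D (0.28). Upper-quartile scaling put SNHG22 at 0.06 and GAS5 at 0.05, a minimum of 10 counts in all libraries SNHG22 and GAS5 at 0.21 each and SNORA71E at 0.09, and limma-voom GAS5 at 0.01 and SNORA71E at 0.13.

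With the GC trend removed 0 hosts were higher and 4 lower, 0 snoRNAs higher and 11 lower, and 468 genes higher and 415 lower; SNHG17 stood at 0.18, SNHG16 at -0.42, SNHG22 at 0.35, SNHG3 at -0.23, SNORA71E at 0.38 and SNORA78 at 0.40. The replicate numbers share only a label: libraries with the same number had correlations of 0.0870, -0.00874 and -0.147 between their deviations. With the replicate block 10 hosts were lower and 2 higher, and GAS5 was 0.01 and SNORA71E 0.05. With block and GC removal together 0 hosts, 0 snoRNAs and 0 genes of any kind were called, although 3992 genes had an unadjusted p under 0.05; SNHG17 was 0.18, SNHG16 -0.38, SNHG22 0.36, SNHG3 -0.17, SNORA71E 0.57 and SNORA78 0.41.

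With no filter 1 host was higher and 4 lower, 0 snoRNAs higher and 8 lower, and 1603 genes lower. A minimum of 10 counts gave 2 snoRNAs higher and 16 lower of 40 tested. DESeq2 gave 0 snoRNAs higher and 22 lower of 55, and 2189 genes higher. With read equivalents 0 snoRNAs were higher and 19 lower of 26 tested. SNORA1, SNORD6 and SNORD12 were not among those 26. A threshold of 0.01 left 1 host higher and 3 lower, 0 snoRNAs higher and 5 lower, and 1401 genes higher and 779 lower. The cause of these shifts was not tested. The median difference of the snoRNA to host log2 ratio stayed below 0 in every alternative run, from -0.66 to -0.37. With genes of at least 200 nt alone, 4 snoRNAs in hosts were tested, too few for a count. Each tested SNORD116 copy had at most 10.9 read equivalents in a library; the size of change that this depth can show was not tested.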
